A study of Mus musculus with 6 samples.

Results

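Imprinted genes are transcribed mainly from the maternal or mainly from the paternal copy, and several of them are abundant in long-term blood stem cells and decline as those cells differentiate. The 10 imprinted genes described here are H19, Meg3, Dlk1, Peg3, Grb10, Plagl1, Mest, Igf2, Igf2r and Ndn. They were taken by name, and each was measured by the probeset that carries its symbol and no other. By this rule 9 of the 10 were found among 19938 genes with such a probeset. H19 matched none and is not analysed here. Of the 9, 8 were among the 14994 genes tested, and Mest lay under the filter that left out the dimmest 25% of probesets.

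RNA was measured on MoGene 1.0 ST arrays, which carry sets of probes (probesets) along each transcript. The cells were KSL SLAM cells from mouse bone marrow, that is CD150+, CD48- and CD41- cells within the c-Kit+, Sca-1+ and Lineage- fraction, a gate rich in haematopoietic stem cells. The first group of mice received granulocyte colony-stimulating factor (G-CSF) under the skin at 125 mcg/kg, 2 times a day, for 7 days, and the other received PBS for 7 days. Each group had 3 arrays, and each array held RNA pooled from 5 to 10 mice. No genetic change is labelled in either group, and the labels state neither strain nor age. Levels are log2 intensities, and a difference is G-CSF minus PBS on that scale.

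The KSL SLAM label was checked against marker genes. All 12 measured stem cell markers, Procr, Slamf1 and Hlf among them, passed the filter. In 3 of the 12 every G-CSF array lay below the lowest PBS array (against 5.05% of all genes tested), and in 0 above the highest. Of these 3 Kit, the gate marker, named after its values were seen, was at 9.28, 9.21 and 8.63 with G-CSF and 10.28, 9.92 and 9.85 with PBS (difference -0.98, unadjusted p = 0.00336 by limma, adjusted p = 0.374). The summed intensity of the stem cell markers ran from 3665 to 4627 on G-CSF arrays and from 4934 to 5392 on PBS arrays. That sum includes Kit and was not taken without it, so the part of the other markers in its separation was not tested. Of the 12 markers 11 had negative differences and 1 a positive one, with a median of -0.26 beside 0.0015 over all genes tested. Of the 13 measured neutrophil markers 12 had every G-CSF array above the highest PBS array (against 5.77% of all genes tested), and the summed intensity of the list was 30157 to 37951 with G-CSF and 9876 to 17327 with PBS. For 9 granulocyte-monocyte progenitor markers, of which 8 showed the same separation, the sums were 2446 to 6343 with G-CSF and 838 to 1179 with PBS. The 9 megakaryocyte markers summed to 556 to 588 with G-CSF and 778 to 1010 with PBS, and the 8 erythroid markers to 850 to 1027 with G-CSF and 1084 to 1634 with PBS. The sums of both lists did not overlap between groups, but the mean log2 of the erythroid markers did (6.15 to 6.40 with G-CSF, 6.23 to 6.76 with PBS). Every G-CSF array lay below all PBS arrays in 1 erythroid and 3 megakaryocyte markers, and above them in 0 and 1. Over all genes tested these shares were 5.05% and 5.77%. Of 11 lymphocyte markers 5, among them Cd79a, Ebf1 and Cd3d, lay under the filter's limit on every array. The 14 endothelial and stromal markers summed to 845 to 1074 with G-CSF and 962 to 1021 with PBS. In RNA of sorted pools, a smaller share of cells that express a gene and less RNA of it per cell cannot be told apart.

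The imprinted genes lie in small clusters in which DNA methylation of a control region, placed in the egg or the sperm, sets which copy is read. Meg3, Grb10 and Igf2r are read from the maternal copy in most tissues, and Dlk1, Peg3, Plagl1, Mest, Igf2 and Ndn from the paternal copy. Several act on growth signalling. Igf2 is a growth factor ligand, Igf2r binds it and carries it to lysosomes, and Grb10 is an adaptor that restrains insulin and IGF receptors. In mouse stem cells, loss of the maternally inherited control region upstream of H19 is known to raise Igf2 and to bring cells out of quiescence.

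Dlk1 and Meg3 are neighbours in a single imprinted cluster, and both had higher G-CSF than PBS arrays below. The 250 bases before the start of each are shown because these promoters belong to the pair of genes. They come from RefSeq, build GRCm38.p6, forward strand, at chr12:109540746-109540995 for Meg3 and chr12:109452573-109452822 for Dlk1. Capitals mark matches to 3 motifs searched on both strands. They were TGACGTCA (the cAMP response element, a palindrome), TATAAA (the TATA box) and TGCCGC, the hexamer that ZFP57 recognises when it is methylated.
Meg3 promoter: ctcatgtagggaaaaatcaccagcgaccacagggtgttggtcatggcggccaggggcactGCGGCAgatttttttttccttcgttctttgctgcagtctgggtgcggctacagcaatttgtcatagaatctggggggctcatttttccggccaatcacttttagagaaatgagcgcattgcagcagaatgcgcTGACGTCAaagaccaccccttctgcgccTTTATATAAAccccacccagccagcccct
Dlk1 promoter: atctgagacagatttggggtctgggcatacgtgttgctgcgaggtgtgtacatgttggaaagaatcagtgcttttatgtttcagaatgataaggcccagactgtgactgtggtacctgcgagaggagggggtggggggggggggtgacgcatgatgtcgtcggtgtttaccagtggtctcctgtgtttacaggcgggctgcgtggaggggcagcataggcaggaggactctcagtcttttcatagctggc
The Meg3 window held TGACGTCA from 57 bases before the start. It also held TATAAA from 25 and its reverse complement TTTATA from 29, which overlap, and GCGGCA, the reverse complement of the ZFP57 hexamer, from 190. The Dlk1 window held none of these letters. Of 32841 mouse promoter windows of that length, 1.55% held the first motif, 12.4% the TATA box and 8.68% the hexamer, on either strand. The Meg3 window had 10 CG dinucleotides and the Dlk1 window 8, against a median of 6 over all windows. RefSeq lists 2 starts for Meg3, and the upstream one is shown. Windows were found for 9 of the 10 genes. Among the first windows of the other genes, Peg3 held TGACGTCA from 178 bases before its start and Plagl1 held GCGGCA from 90.

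The same cluster holds many miRNAs, short RNAs that pair with target transcripts through a seed (bases 2 to 8, in capitals). The mature forms of 3 of them are shown because their probesets separated the groups below, and those of Mir335 because it lies within Mest. All are RefSeq sequences of GRCm38.p6.
miR-540-5p: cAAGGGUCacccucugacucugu
miR-540-3p: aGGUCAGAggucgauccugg
miR-665-5p: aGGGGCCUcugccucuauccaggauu
miR-665-3p: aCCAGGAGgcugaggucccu
miR-431-5p: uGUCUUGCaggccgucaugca
miR-431-3p: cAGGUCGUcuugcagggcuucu
miR-335-5p: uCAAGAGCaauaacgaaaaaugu
miR-335-3p: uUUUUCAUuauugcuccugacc
The 8 seeds all differed, and none was shared with another miRNA measured in the cluster.

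The design asks whether the level of each imprinted gene in KSL SLAM cells differs after G-CSF. Meg3 and Dlk1 lay higher on every G-CSF array than on every PBS array, Igf2r lay lower on every G-CSF array, and Ndn had a lower G-CSF mean with wide spread. Of the 8 genes tested, 0 passed limma's test at an adjusted p under 0.05, and 1, Meg3, had an unadjusted p under 0.05. Over all 14994 genes, 4 passed (0.0267%), all of them higher with G-CSF, and 0 lower. An unadjusted p under 0.05 was found for 6.04% of all genes (2.73% higher and 3.3% lower with G-CSF). The groups did not overlap in 3 of the 8 imprinted genes, 2 of them higher and 1 lower with G-CSF, against 10.8% of all genes tested (5.77% higher and 5.05% lower). The median difference of the 9 measured genes was 0.056, beside 0.0015 over all genes tested. Since 0 imprinted genes passed, the differences below are given as values with their intervals.

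**Figure D1:**
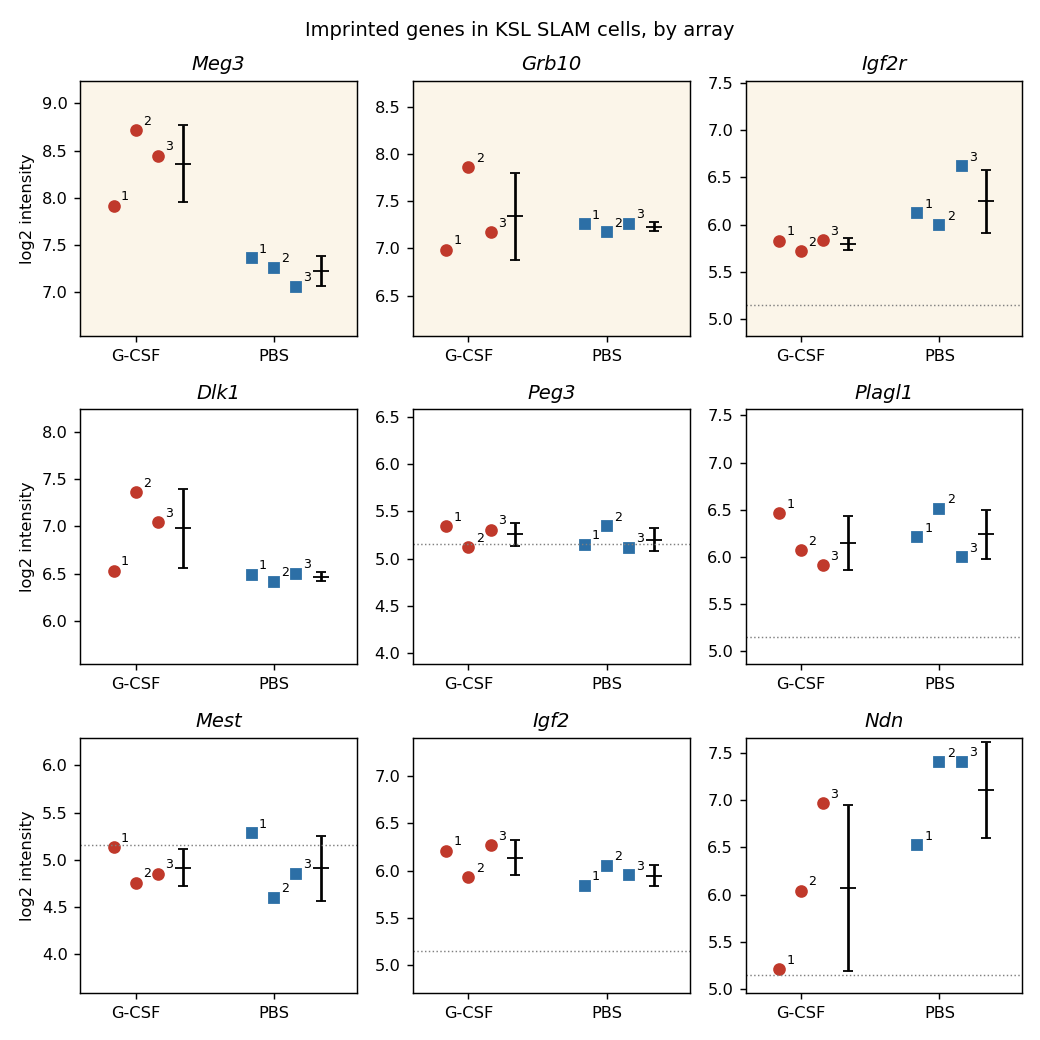
Log2 intensity of the 9 measured imprinted genes on each array (vertical axes, each spanning the same number of log2 units), with G-CSF arrays as circles, PBS arrays as squares, replicate numbers beside the points, and mean ± SD of 3 arrays beside each group. Shaded panels are maternally expressed genes and the dotted line is the filter's limit of 5.15. Meg3, Dlk1 and Igf2r are the genes whose groups do not overlap.

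Meg3 is a maternally expressed long non-coding RNA that marks mouse long-term stem cells. Its log2 intensity was 7.92, 8.72 and 8.45 on the G-CSF arrays, against 7.36, 7.26 and 7.06 on the PBS arrays. Every G-CSF array stood above every PBS array, with a gap of 0.56 between the groups. The means were 8.36 ± 0.41 with G-CSF and 7.23 ± 0.15 with PBS (SD, n = 3 each), a difference of 1.13 (SE 0.23, 95% interval 0.59 to 1.68) or 2.20-fold. The unadjusted limma p was 0.00157 and the adjusted p 0.294. Of all genes tested, 0.76% had a larger positive difference.

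Dlk1, a paternally expressed membrane protein related to Notch ligands, stands next to Meg3. It was at 6.53, 7.36 and 7.04 on the G-CSF arrays and at 6.49, 6.41 and 6.50 on the PBS arrays. The PBS arrays lay close together, and G-CSF replicate 1 stood above the highest of them by 0.033. The difference was 0.51 (SE 0.23, 95% interval -0.02 to 1.05, limma adjusted p = 0.851). Without G-CSF replicate 2 it was 0.32, and without G-CSF replicate 1 it was 0.74. Replicate 2 had the highest and replicate 1 the lowest G-CSF value for both Meg3 and Dlk1. The summed neutrophil markers had the same highest and lowest G-CSF array, at 37951 and 30157. So did the summed stem cell markers, at 4627 and 3665. The summed granulocyte-monocyte progenitor markers were also highest on replicate 2, at 6343, but lowest on replicate 3, at 2446. The erythroid and megakaryocyte sums were highest on replicate 3, at 1027 and 588. Genes outside the cluster had the order of Meg3 and Dlk1 too, such as Grb10 (6.99, 7.86 and 7.18), Ctcf (8.06, 9.14 and 8.18) and Dnmt1 (8.44, 9.14 and 8.60). Others did not, such as Igf2 (6.21, 5.93 and 6.27). The order is thus not particular to Meg3, Dlk1 and these marker lists. The part of cell types or of whole arrays in the differences of Meg3 and Dlk1 was not tested.

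Other genes of the cluster were read along the chromosome from Dlk1 to Dio3, a stretch chosen after values had been seen. RefSeq lists 103 genes there, of which 47 had a probeset with a single symbol, 40 of them miRNAs, and 18 passed the filter. In 7 of the 47, and in 6 of the 18, the lowest G-CSF array exceeded the highest PBS array, against 5.77% of all genes tested. In 1, Mir412, which was dim and chosen after its values were seen, the groups separated the other way. These 7 were Dlk1, Meg3, Rtl1, Mir540, Mir665, Mir431 and Rian, and all stood among the first 12 genes of the stretch, where Rian is the last. Both counts include Dlk1 and Meg3, whose values had been seen before the stretch was chosen. The 47 also hold genes under the filter, which the 5.77% leaves out. The counts therefore describe the stretch and are no separate support for a difference there. Of the 35 genes after Rian, 0 had G-CSF arrays all above the PBS arrays, and their median difference was 0.053. Rian is itself the last of the 7, so that 0 is fixed by where the stretch was split and is no result about position. Most of the later genes were dimmer: 9 of the 35 passed the filter and 26 lay under it, against 9 passing of the first 12. The 9 included Mir667 (means 9.26 with G-CSF and 9.05 with PBS) and Mir341 (8.27 and 8.12), with overlapping groups. Both were brighter than Mir431 (6.29 and 5.82), whose groups separated. The part of probeset brightness was not tested. Across the stretch 0 genes passed limma's test after adjustment, and neighbours that share transcripts are not independent.

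Rtl1, a paternally expressed gene derived from a retrotransposon, was at 5.78, 5.57 and 5.67 with G-CSF and at 4.78, 5.54 and 5.00 with PBS. Its groups stood apart by little, as PBS replicate 2 nearly reached the G-CSF arrays, and 2 of the PBS arrays lay under the filter's limit of 5.15. The difference was 0.57 (SE 0.22, limma unadjusted p = 0.0356, adjusted p = 0.766). Rian, a maternally expressed non-coding RNA that hosts small nucleolar RNAs, was dim and lay under the filter, at 5.23, 4.57 and 4.46 with G-CSF and 4.44, 4.31 and 4.13 with PBS. Its groups stood apart by 0.024, and without G-CSF replicate 1 its difference of 0.46 was 0.22.

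Probesets over miRNA hairpins cannot tell a precursor or host transcript from the mature miRNA. Mir665 was at 6.93, 6.04 and 6.39 with G-CSF and 6.03, 5.81 and 5.70 with PBS, a difference of 0.60 (SE 0.25) that was 0.37 without G-CSF replicate 1. Mir540 was at 7.33, 6.81 and 7.07 with G-CSF and 6.56, 6.67 and 6.70 with PBS, a difference of 0.43 (SE 0.18). Both had their highest value on G-CSF replicate 1, the array where Meg3 and Dlk1 were lowest within the G-CSF group. Mir431, which lies antisense to Rtl1, differed by 0.47 (SE 0.23), or 0.24 without PBS replicate 1, and Mir127, also antisense to Rtl1, by -0.16 (SE 0.18) with overlapping groups. The labels do not state the strand that the probes read, so Rtl1 and its antisense miRNAs cannot be told apart with certainty. These miRNAs were chosen after their values were seen, and the adjusted p of each was at least 0.796 by limma.

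**Figure D2:**
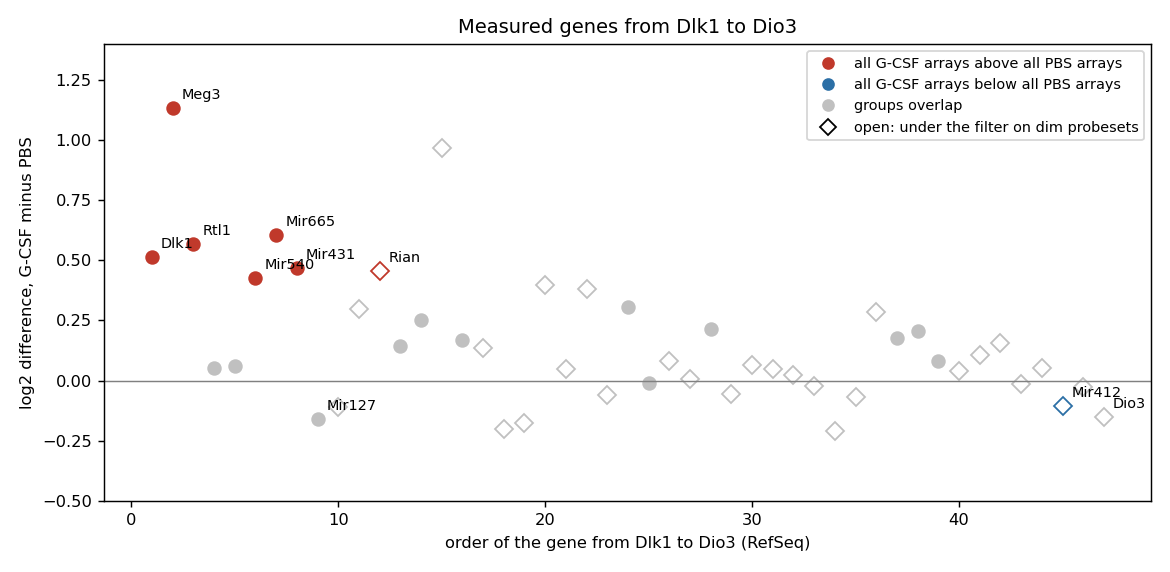
Log2 difference, G-CSF minus PBS (vertical axis), of the 47 measured genes from Dlk1 to Dio3 in chromosomal order (horizontal axis), coloured by whether the groups of 3 arrays separate, with open diamonds for genes under the filter. The 7 genes whose G-CSF arrays all exceed the PBS arrays stand among the first 12, up to Rian, itself the last of the 7.

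Ndn encodes necdin, a paternally expressed growth suppressor that p53 is known to induce and that keeps mouse stem cells quiescent. It was at 5.21, 6.04 and 6.97 on the G-CSF arrays and at 6.52, 7.40 and 7.41 on the PBS arrays. The groups overlapped, because G-CSF replicate 3 stood above PBS replicate 1. The means were 6.07 ± 0.88 with G-CSF and 7.11 ± 0.51 with PBS (SD, n = 3 each), so the difference of -1.04 (SE 0.46, 95% interval -2.11 to 0.04) was close to the spread between arrays. Its limma unadjusted p was 0.0564 and its adjusted p 0.851. Without G-CSF replicate 1 the difference was -0.60, and without G-CSF replicate 3 it was -1.48. Of all genes tested, 0.627% had a more negative difference. Magel2, a paternally expressed relative of necdin in the same cluster that was also named afterwards, differed by 0.17 (SE 0.18).

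Igf2r, the maternally expressed clearance receptor for Igf2, was at 5.83, 5.72 and 5.83 with G-CSF and at 6.12, 5.99 and 6.62 with PBS. The G-CSF arrays lay close together (SD 0.064), all below the PBS arrays. The difference was -0.45 (SE 0.20, 95% interval -0.92 to 0.01, limma adjusted p = 0.851), and without PBS replicate 3, the highest array, it was -0.26. Airn, the paternally expressed non-coding RNA antisense to Igf2r that silences it in cis, was named after its values were seen. It was at 6.48, 6.46 and 5.76 with G-CSF and 6.62, 6.75 and 6.52 with PBS, with all G-CSF arrays lower and a difference of -0.40 (SE 0.23), which was -0.16 without G-CSF replicate 3.

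The ligand Igf2, a paternally expressed growth factor, was at 6.21, 5.93 and 6.27 with G-CSF and at 5.84, 6.05 and 5.95 with PBS. The groups overlapped, with a difference of 0.19 (SE 0.16, 95% interval -0.19 to 0.57, limma adjusted p = 0.966). Grb10 was at 6.99, 7.86 and 7.18 with G-CSF and at 7.25, 7.18 and 7.26 with PBS. Its PBS arrays agreed within an SD of 0.048, while G-CSF replicate 2 stood above and replicate 1 below all of them. The difference was 0.11 (SE 0.24, 95% interval -0.45 to 0.67), and it turned to -0.15 without G-CSF replicate 2.

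Plagl1, a zinc finger transcription factor that regulates other imprinted genes in the mouse, was at 6.47, 6.07 and 5.91 with G-CSF and at 6.21, 6.51 and 6.0003 with PBS. Its groups overlapped (difference -0.09, SE 0.21, 95% interval -0.59 to 0.41). It turned to 0.044 without PBS replicate 2 and to 0.027 without G-CSF replicate 3. Peg3, a paternally expressed zinc finger protein, was dim in both groups, at 5.34, 5.12 and 5.31 with G-CSF and 5.15, 5.34 and 5.12 with PBS. Only 3 of its 6 arrays lay above the filter's limit, and it differed by 0.056 (SE 0.15, 95% interval -0.31 to 0.42). Mest, a paternally expressed hydrolase-like protein, was at 5.13, 4.76 and 4.85 with G-CSF and 5.28, 4.60 and 4.85 with PBS. It was above the limit on 1 of 6 arrays, and with no filter its interval was -0.50 to 0.51 around a difference of 0.0027. The sign of that difference turned when single arrays were left out (-0.15 to 0.19) and with quantile normalization again (-0.035) or each array centred on its median (-0.015). A dim probeset can fail to show a difference that exists. In the same cluster, Copg2 (difference -0.22, SE 0.21) and Mir335 (0.30, SE 0.18), both named after their values were seen, had overlapping groups.

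**Figure D3:**
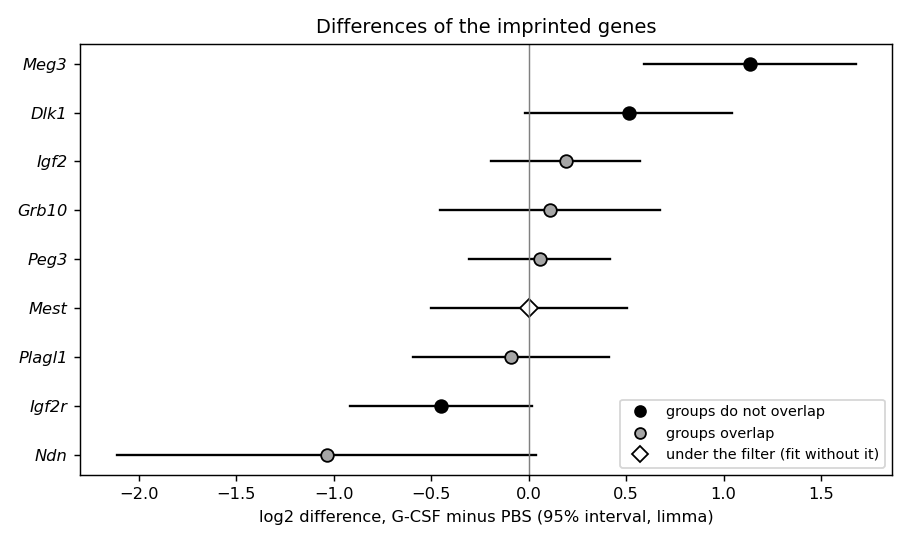
Log2 difference, G-CSF minus PBS, of the 9 measured imprinted genes with 95% intervals from limma (horizontal axis), ordered by size. The interval lies wholly on one side of 0 for Meg3 and includes 0 for the others, and Mest is drawn from the fit without the filter.

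**Figure D4:**
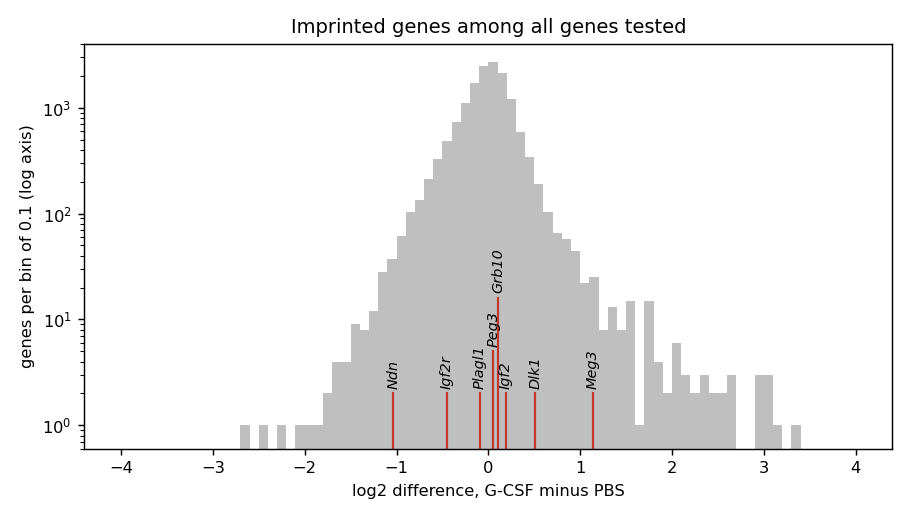
Number of genes per bin of log2 difference for the 14994 genes tested (log vertical axis), with lines at the 8 imprinted genes tested. Ndn at -1.04 and Meg3 at 1.13 lie outside the bulk of the genes, with other genes farther out on both sides, and Peg3, Plagl1, Grb10 and Igf2 lie near the centre.

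By expressed copy, the maternally expressed genes differed by 1.13 (Meg3), 0.11 (Grb10) and -0.45 (Igf2r). The paternally expressed genes ran from -1.04 (Ndn) to 0.51 (Dlk1). Positive and negative values thus stood in both sets.

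A wider list held 61 other genes reported as imprinted in at least some mouse tissue, of which 49 were measured and 38 tested. By limma 0 passed after adjustment in either direction, and 4 had an unadjusted p under 0.05, 2 with positive and 2 with negative differences (4 of 38, against 6.04% of all genes tested). Their median difference over the 49 measured was -0.0053. In 6 of the 38 the groups did not overlap (15.8%, against 10.8% of all genes tested). Impact, a regulator of translation under amino acid stress, was at 9.01, 8.45 and 8.57 with G-CSF and 9.18, 9.70 and 9.26 with PBS, all G-CSF arrays lower (difference -0.70, SE 0.22, unadjusted p = 0.0152, adjusted p = 0.641 by limma). Nap1l4, a histone chaperone, differed by -0.48 (SE 0.19, adjusted p = 0.781 by limma) with all G-CSF arrays lower. Nnat, a small membrane proteolipid known from brain, was at 6.75, 6.25 and 6.34 with G-CSF and 5.97, 5.78 and 5.95 with PBS, all G-CSF arrays higher (difference 0.55, SE 0.18, adjusted p = 0.699 by limma).

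Cdkn1c encodes p57, the maternally expressed inhibitor of cyclin-dependent kinases that keeps mouse stem cells quiescent. It was at 6.30, 6.39 and 6.75 on the G-CSF arrays and at 6.82, 6.82 and 6.94 on the PBS arrays, which all lay higher (adjusted p = 0.853 by limma). Peg10, a retrotransposon-derived gene, differed by -0.44 (SE 0.32), and its neighbour Sgce, a sarcoglycan, by 0.37 (SE 0.20), both with overlapping groups. Without G-CSF replicate 3 Peg10 differed by -0.21 and Sgce by 0.23, and without G-CSF replicate 1 Peg10 differed by -0.81. Gnas, Snrpn and Mirg had no probeset of a single symbol and are not analysed here.

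Factors that keep imprints in place showed no separation of the groups. Of 15 measured 13 were tested, 0 had an unadjusted p under 0.05 and in 0 did the groups stand apart. Differences ran from -0.32 for Smchd1, a chromatin protein of silenced loci (SE 0.25, adjusted p = 0.960 by limma), to 0.22. The maintenance methyltransferase Dnmt1 differed by 0.20 (SE 0.21), the de novo methyltransferase Dnmt3a by -0.04 (SE 0.24), the insulator protein Ctcf by 0.09 (SE 0.32) and the corepressor Trim28, which ZFP57 recruits, by 0.03 (SE 0.22). The signs of these 4 differences turned when single arrays were left out. Methylation of the control regions was not measured by these arrays.

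The IGF and insulin receptor pathway, through which Igf2, Igf2r and Grb10 act, had 37 genes tested. By limma 0 passed after adjustment and 2 had an unadjusted p under 0.05, against 6.04% of all genes tested. In 7 of the 37 the groups did not overlap (18.9%, against 10.8% of all genes tested), 5 of them higher and 2 lower with G-CSF. Igfbp6, a binding protein with a preference for Igf2, was at 6.40, 6.37 and 6.13 with G-CSF and 5.45, 5.89 and 5.87 with PBS (difference 0.57, SE 0.18, adjusted p = 0.665 by limma). Rictor, the defining subunit of mTOR complex 2, was at 6.66, 6.60 and 6.32 with G-CSF and 7.10, 6.83 and 7.40 with PBS (difference -0.58, SE 0.20, adjusted p = 0.700 by limma). Both genes are among those 7. The receptors Igf1r (-0.14, SE 0.16) and Insr (-0.60, SE 0.35) and the RNA-binding protein Igf2bp3 (-0.28, SE 0.17) had overlapping groups, and Igf2bp2 is not analysed here. Insr differed by -0.11 with all its probesets averaged, by -0.32 without PBS replicate 2 and by -0.92 without G-CSF replicate 3. Igf1r differed by -0.039 without PBS replicate 3. Among 15 tested genes of the Notch pathway, to which Dlk1 is related, 0 had an unadjusted p under 0.05 and in 0 did the groups stand apart. The smallest p was that of the receptor Notch1 (difference 0.34, SE 0.18, adjusted p = 0.918 by limma).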

How the data were processed

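The values are intensities of 35554 probesets that the authors deposited, made with RMA, per the submitters' processing notes. They were on a linear scale, so log2 was taken first. The software and the set of arrays that RMA was run on are unknown here. Probesets were named through the platform annotation. Those with 1 gene symbol (21789) were used, and the lowest 25% of these by mean over the 6 arrays (up to 5.15 in log2) were left out. Where a gene had several probesets, the brightest on average was kept. Groups were compared with limma 3.58.1 (R 4.3.3, lmFit and eBayes, no covariate, two-sided), with Benjamini-Hochberg adjustment over 14994 genes at 0.05. The number of arrays limits the precision.

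The 10 imprinted genes and all lists were chosen with earlier results of these data known. The named genes are all 10, the genes with the smallest unadjusted p under 0.05 in each further list (up to 4 a direction, else the smallest p), and 16 others set by name. Airn, Magel2, Copg2, Kit and the miRNAs of the report were chosen after their values were seen. Alternatives changed the filter, normalization, variance model, array weights, probeset rule, replicate block and arrays included. Figures were drawn with matplotlib 3.10.9.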

Additional observations from a re-analysis of the deposited data

How the results depend on the processing

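Under all 14 alternatives run, 0 of the imprinted genes passed limma's adjusted threshold, and the smallest adjusted p of any of them was 0.17, for Meg3. The difference of Meg3 stayed between 0.96 and 1.36, that of Dlk1 between 0.32 and 0.74, that of Igf2r between -0.58 and -0.26 and that of Ndn between -1.48 and -0.60. Of all genes, 4 were higher with G-CSF in the reported fit, 12 with quantile normalization again, 2 with each array centred on its median, and 0 to 6 when single arrays were left out. The count was 0 without G-CSF replicate 2 or 3 or any one of PBS replicates 1, 2 and 3. Signs turned for 7 named genes when single arrays were left out. Over those fits the difference ran from -0.15 to 0.19 for Mest, from -0.25 to 0.044 for Plagl1, from -0.15 to 0.29 for Grb10, from -0.25 to 0.29 for Ctcf, from -0.13 to 0.23 for Trim28, from -0.27 to 0.13 for Dnmt3a and from -0.011 to 0.34 for Dnmt1. The cause was not tested. With no turn of sign, it ran from 0.013 to 0.13 for Peg3, from 0.12 to 0.29 for Igf2, from -0.34 to -0.040 for Copg2, from 0.035 to 0.27 for Magel2, from -0.28 to -0.024 for Mir127 and from -0.51 to -0.13 for Smchd1. Arrays with the same replicate number did not deviate together in all pairs (correlations 0.29, 0.019 and 0.19 for numbers 1, 2 and 3). Between different numbers the correlations ran from -0.28 to 0.10. The labels do not state whether arrays of the same number were paired, and these values do not settle it. With the replicate block 5 genes were higher and 0 imprinted genes passed. In that fit the unadjusted limma p was 0.0049 for Ndn (0.0564 without the block) and 0.0029 for Meg3 (0.0016 without it). With 3 arrays a group and no measured background, differences of dim genes such as Peg3 and Mest are the least certain.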

Other observations

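The probeset annotated to both the small nucleolar RNA AF357355 and its host Rian was left out of the comparison because it names 2 genes. Its log2 intensity was 9.11, 4.42 and 8.06 on the G-CSF arrays and 4.30, 8.20 and 4.68 on the PBS arrays. High and low values stood in both groups. The probeset annotated to both Mir675, the miRNA that H19 hosts, and Supt6 was at 6.85, 6.54 and 6.98 with G-CSF and 6.51, 7.03 and 6.78 with PBS, with overlapping groups.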
